A study of Arabidopsis thaliana with 12 samples.

Results

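The genes described here are 17 Arabidopsis thaliana genes whose array features gave a bright signal in both genotypes and differed little between them. The array compared total RNA of the pam46 mutant, which the labels describe as altered in photosynthesis through a defect in an unknown protein, with total RNA of the wild type (WT). Both groups are of ecotype Columbia 0, with 6 samples each, numbered 1 to 6 within a group. The labels do not give the mutated gene, the kind of lesion, the tissue, the age, the light conditions and the hour of harvest. They do not say whether the 6 samples of a group came from separate plants, so the spread between samples may be technical.

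A gene was taken when its feature belonged to 1 gene in the platform annotation, its mean deposited intensity was 2 or more in pam46 and in WT, and its mean log2 difference after quantile normalization lay between -1 and 1. Of 3438 features tested, 181 reached the intensity limit in both groups, and 26 of these belonged to 1 gene. The difference limits kept 23, and the photosynthesis genes PSAN, LHB1B2, PSBW, PRK, AT1G74470 and NdhS were then left out, which gave 17 of the 691 features of 1 gene. The genes were thus chosen by their measured level and their measured difference, and both are given below as a description. The word abundant could not be checked, since the brightness of a feature also depends on its probe and is not compared between genes here. In the bulk RNA of such samples, fewer cells of a type and less RNA per cell cannot be told apart.

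A transcript that keeps its share of the RNA pool in a photosynthesis mutant is the background against which changes in other nuclear genes are read. Chloroplast proteins are mostly encoded in the nucleus, and defects in the organelle are known to feed back on nuclear transcription through retrograde signals. Array intensities after scaling are relative values, so a stable gene is one that kept its place among the other features, not one with a known number of transcripts per cell.

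**Figure D1:**
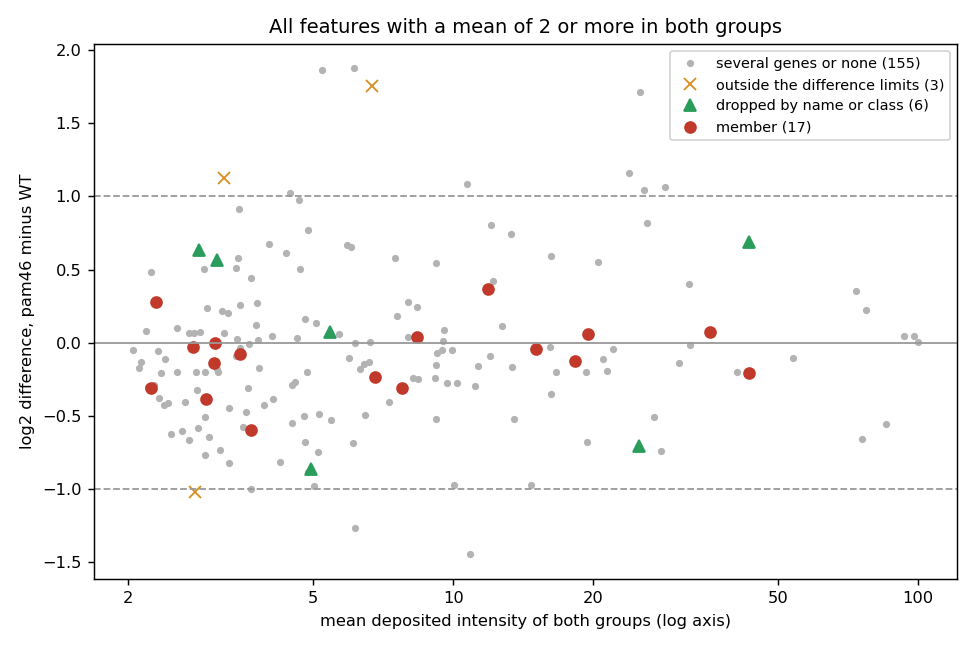
Log2 difference (pam46 minus WT, quantile normalized) against the mean deposited intensity of both groups on a log axis, for the 181 features with a mean of 2 or more in both groups. Red circles are the 17 genes described here, green triangles the 6 photosynthesis genes left out, orange crosses the 3 genes outside the limits (dashed lines) and grey points the 155 features of several genes or none. The 17 genes run from -0.60 to 0.37 and fill only the middle of the band.

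Summed intensities were 3297 to 3561 in pam46 samples and 3290 to 3644 in WT samples. Median intensities differed more, at 0.199 to 0.226 in pam46 against 0.296 to 0.341 in WT, so the typical feature was dimmer in pam46 while the sums were alike. None of the 17 genes reached the cap of 100 or was listed at 0 in any sample. Their single values ran from 1.56 to 58.1. The root, seed and leaf markers chosen to check the tissue had no measured feature of 1 gene, so the tissue could not be checked.

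All 17 genes are protein-coding in the RefSeq table of assembly TAIR10.1, and 3 carry a symbol of their own there, CYN, CUTA and CCL. For the others the table gives only a locus name, and the functions stated here are general knowledge of Arabidopsis gene families. No function is stated where that knowledge was not firm. Lists of common families could be searched only by symbol or synonym, which the table lacks for most of these genes, so they give no count of family members here. By locus name 6 of the 17 lie on chromosome 4, which holds 17.4% of the features of 1 gene, and 5 on chromosome 3 (18.8%). A further 3 each lie on chromosome 1 (25.0%) and chromosome 2 (17.8%), and 0 on chromosome 5 (20.7%). The closest neighbours were AT4G31470 and AT4G31530 with 5 protein-coding genes between them, and AT3G26580 and CCL with 17.

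**Figure D2:**
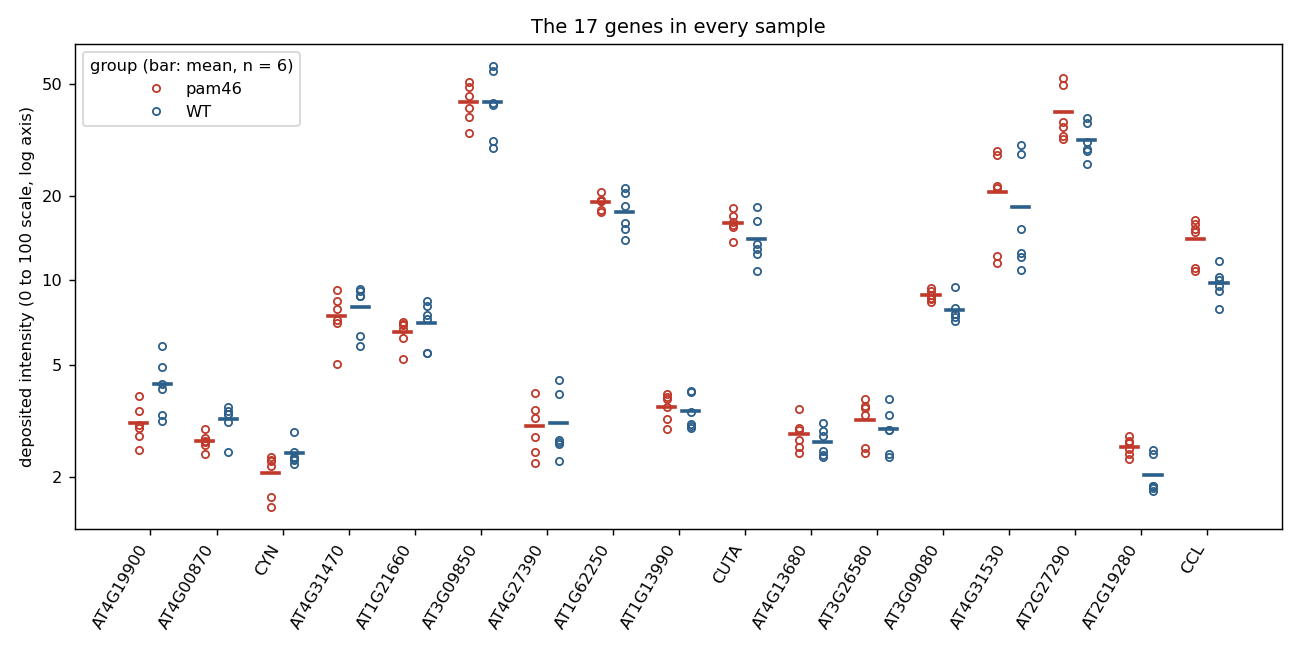
Deposited intensity (0 to 100 scale, log axis) of the 17 genes in every sample, pam46 (red, left) and WT (blue, right), with bars at the group means (n = 6 each), ordered from the lowest to the highest log2 difference. Circles of both groups overlap in every gene.

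Of the genes with a symbol of their own, CUTA and CYN are described first. CUTA encodes a plastid member of the CutA family, named after bacterial proteins of tolerance to divalent metal ions. It was at 13.7, 16.0 and 18.1 in pam46 (lowest, median and highest deposited intensity) and at 10.8, 13.2 and 18.3 in WT. The ranges overlapped, but WT samples 3, 4, 5 and 6 lay below every pam46 sample on the deposited scale. CUTA was higher in pam46 in 5 of 6 numbers on that scale and in 2 of 6 after normalization. Its log2 difference was -0.04 ± 0.09 (SE, n = 6 per group) after normalization and 0.21 on the values as deposited. The SEs given here take the 6 samples of a group as independent. Samples with consecutive numbers resemble each other and may be repeat readings, which would leave 3 per group, and with such numbers averaged the SE of CUTA was 0.13. Over the 17 genes the median SE was 0.18 with averaging and 0.13 without. The SEs given here also use no pairing by number, and with the replicate number as a block the median was 0.11. Counts out of 6 numbers likewise take each number as separate, and they are given as a description only. CYN encodes cyanase, the enzyme that breaks down cyanate with bicarbonate to ammonia and carbon dioxide. CYN was at 1.56, 2.23 and 2.35 in pam46 and at 2.23, 2.33 and 2.89 in WT, and the pam46 samples 3 and 4 stood below all others. Its log2 difference was -0.31 ± 0.12 (SE), and -0.09 when numbers 3 and 4 were left out of both groups.

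CCL (CCR-like) is known in Arabidopsis as a clock-regulated transcript with a short-lived mRNA. It was the gene with the highest difference of the 17, at 0.37 ± 0.13 (SE, log2, and 0.19 with consecutive numbers averaged), with 0.51 on the values as deposited. CCL intensities were 10.8, 15.0 and 16.4 in pam46 and 7.94, 9.76 and 11.7 in WT. The pam46 sample exceeded the WT sample of the same number in 6 of 6 numbers, yet the groups overlapped because pam46 samples 5 and 6 lay below WT sample 2.

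Genes tied to transcription and RNA were AT4G00870, AT2G19280 and AT3G09850. AT4G00870 encodes a bHLH transcription factor of a clade known to repress jasmonate responses. It was at 2.40, 2.67 and 2.94 in pam46 and at 2.45, 3.34 and 3.55 in WT, with WT sample 5 alone inside the pam46 range. The log2 difference was -0.38 ± 0.10 (SE). AT2G19280 encodes a pentatricopeptide repeat protein, a family that mostly acts on organelle RNA. It was at 2.31, 2.58 and 2.78 in pam46 and at 1.78, 1.85 and 2.48 in WT, where samples 1 and 2 lay inside the pam46 range and the other 4 lay below it. Its log2 difference was 0.28 ± 0.09 (SE, and 0.14 with consecutive numbers averaged), with pam46 higher in 6 of 6 numbers. AT3G09850 encodes a G-patch protein, a domain found in proteins that bind RNA. It was at 33.6, 43.4 and 51.1 in pam46 and at 29.8, 42.4 and 58.1 in WT, so the WT samples spread on both sides of the pam46 samples. Its means were 43.1 ± 6.63 in pam46 and 43.2 ± 11.8 in WT (SD, n = 6 each), and its log2 difference was -0.21 ± 0.19 (SE). That difference was 0.03 on the values as deposited, -0.10 without WT sample 3 and 0.07 without numbers 3 and 4.

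AT4G19900, for which no function is stated, had the lowest difference of the 17, -0.60 ± 0.18 (SE, log2, and 0.26 with consecutive numbers averaged). That difference was -0.37 without numbers 3 and 4 of both groups. AT4G19900 was at 2.49, 3.01 and 3.86 in pam46 and at 3.14, 4.19 and 5.83 in WT, and pam46 was below WT in 6 of 6 numbers. The top pam46 sample, number 5, still exceeded WT samples 1 and 2. AT4G31470 belongs to the CAP superfamily of secreted proteins that includes the pathogenesis-related PR-1. It was at 5.03, 7.56 and 9.25 in pam46 and at 5.82, 8.78 and 9.31 in WT, with a log2 difference of -0.31 ± 0.14 (SE). Its lowest value was pam46 sample 6, and WT samples 3 and 4 were also low. The difference was -0.10 on the values as deposited, where pam46 was higher in 3 of 6 numbers, and -0.10 without numbers 5 and 6. AT4G31530 encodes a protein with an NAD(P)-binding Rossmann fold. It was at 11.5, 21.5 and 29.0 in pam46 and at 10.9, 13.9 and 30.5 in WT, the widest spread of the 17 within groups (pooled SD 0.59 on the log2 scale). Its log2 difference of 0.06 ± 0.32 (SE) had the largest SE of the 17 in the fit without a block. With the replicate number as a block its SE was 0.19, as was that of AT3G09850.

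AT1G21660 encodes a DnaJ-domain protein of the auxilin-like type, a family linked to the uncoating of clathrin vesicles. It was at 5.23, 6.82 and 7.11 in pam46 and at 5.49, 7.42 and 8.44 in WT, with a log2 difference of -0.23 ± 0.11 (SE). Normalized values were lower in pam46 in 6 of 6 numbers, and deposited ones in 5 of 6. Of the genes with no function stated, AT3G26580 had the smallest difference of all at -0.0016 ± 0.14 (SE), with 2.43, 3.41 and 3.79 in pam46 and 2.35, 2.92 and 3.77 in WT. AT3G09080 was at 8.36, 8.75 and 9.39 in pam46 and at 7.17, 7.60 and 9.49 in WT. Its difference was 0.04 ± 0.10 (SE), and the 5 WT samples other than number 4 lay below every pam46 sample on the deposited scale.

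The other 5 genes have no function stated here either. AT2G27290 was at 32.0, 35.9 and 52.5 in pam46 and at 26.0, 30.3 and 37.9 in WT. On the deposited scale pam46 was higher in 6 of 6 numbers (0.32, log2), and after normalization in 3 of 6 (0.07 ± 0.15 SE). At numbers 3, 4 and 6 the normalized values of both groups were equal. AT1G62250 was at 17.6, 19.2 and 20.7 in pam46 and at 13.9, 17.2 and 21.4 in WT (-0.12 ± 0.13 SE), with the pam46 values inside the WT range. AT1G13990 was at 2.97, 3.66 and 3.94 in pam46 and at 2.99, 3.24 and 4.03 in WT (-0.08 ± 0.10 SE). AT4G13680 was at 2.43, 2.81 and 3.49 in pam46 and at 2.36, 2.62 and 3.11 in WT (-0.03 ± 0.08 SE), with the narrowest spread within groups of the 17 (pooled SD 0.13). AT4G27390 was at 2.24, 2.996 and 3.97 in pam46 and at 2.27, 2.67 and 4.42 in WT (-0.14 ± 0.18 SE), and its groups covered nearly the same range.

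Seen over all 17, the normalized difference was negative in 12 and positive in 5, with a median of -0.08 against -0.10 for the 181 bright features and 0 for all 3438. It was under 0.1 on the log2 scale in either direction in 7 genes, 0.1 to 0.25 in 4, and larger in 6. It was smaller than its own SE in 9, in 7 with the replicate number as a block, and in 10 with consecutive numbers averaged. It was smaller than the pooled SD of single samples in 10. Leaving out a sample or a pair of numbers turned the sign in 8 genes: AT3G09850, AT1G62250, CUTA, AT4G13680, AT3G26580, AT3G09080, AT4G31530 and AT2G27290. In 0 of 17 genes did all pam46 samples lie outside the WT range, on normalized or deposited values. The share was 23.2% of all features on normalized and 29.0% on deposited values, and among the 167 bright features of any annotation inside the same difference limits it was 17.4% on normalized and 15.6% on deposited values. The limits on the difference make such separation less likely than among all features. The 167 share these limits but also hold the 6 photosynthesis genes left out. Of those, PSAN, AT1G74470 and PRK were separated on both scales and PSBW on deposited values only. Nothing is therefore read from the count of 0. A limma fit over all features, with Benjamini-Hochberg adjusted p under 0.05 as its threshold, put 4 of the 17 (23.5%) past it, against 41.1% of all features and 37.0% of the 181 bright ones. The rule had used the same contrast, so this is no test of these genes and nothing is read from the count. The count of the 17 was 3 with equal sums (1656 of all 3438 features) and 14 with equal medians (1541). It was 2 without pam46 sample 1 (1363 of all features), without WT sample 5 (1358) or without WT sample 6 (1365). With dim features left out it was 2 (1335 of the features kept), and 0 when consecutive sample numbers were averaged (588 of all features). With averaging 1 of 17 had an unadjusted limma p under 0.05, a share not computed over all features. Nothing is read from these counts either.

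**Figure D3:**
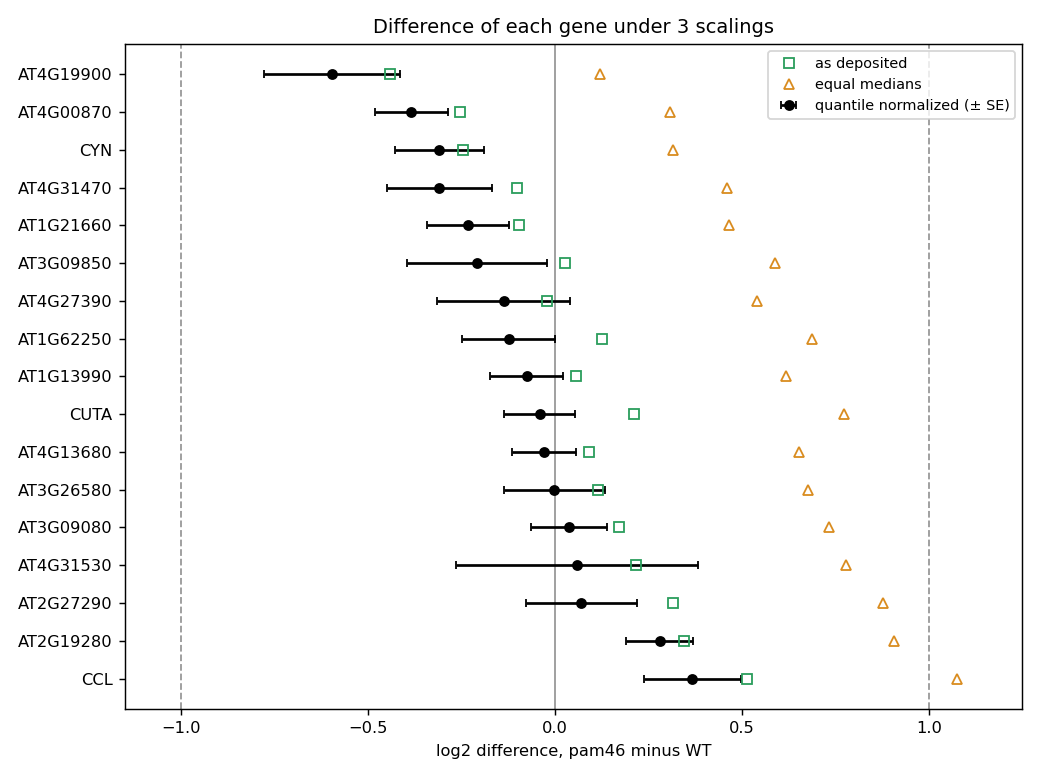
Log2 difference, pam46 minus WT, of each gene after quantile normalization (black, ± SE, n = 6 per group), on the values as deposited (green squares) and with equal medians in every sample (orange triangles). Dashed lines mark -1 and 1. Black points run from -0.60 to 0.37, squares from -0.44 to 0.51 and triangles from 0.12 to 1.08.

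The direction of these small differences depended on the scaling. On the values as deposited 11 of the 17 were higher and 6 lower in pam46, with a median of 0.09, while the median over all features was -0.36. With equal medians all 17 were higher, with a median of 0.65 against 0.09 for all features and 0.61 for the 181 bright features. The signs of AT4G19900 and AT4G00870 turned to 0.12 and 0.31 with equal medians, and CCL passed the limit at 1.08. Under all 4 scalings run (quantile normalization, the deposited values, equal sums, equal medians) 5 genes were higher in pam46: AT3G09080, AT4G31530, AT2G27290, AT2G19280 and CCL. AT4G19900 was the lowest and CCL the highest after quantile normalization and on the values as deposited. Equal sums and equal medians shift every one of the 17 by the same amount from the values as deposited, so they leave that order as it is.

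Just inside the lower intensity limit stood AT2G19280, with a WT mean of 2.03, and CYN, with a pam46 mean of 2.06. Just outside were AT2G36480, with 1.98 in pam46 and 2.72 in WT, and AT4G32060, with 2.14 in pam46 and 1.96 in WT. Among the 17, AT4G19900 (-0.60) and AT4G00870 (-0.38) came closest to -1, and CCL (0.37) and AT2G19280 (0.28) to 1. Beyond them were AT2G33180 at -1.02, AT4G39760 at 1.13 and AT4G17070 at 1.75, 3 genes in all. AT2G33180 came inside the limits on the values as deposited (-0.95). Among the 6 genes left out by name or class, the differences were -0.86 for PSAN, -0.71 for LHB1B2, 0.07 for NdhS, 0.57 for AT1G74470, 0.63 for PRK and 0.69 for PSBW. Of these 6, only NdhS lay inside the range of the 17.

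Spread within groups was not used to choose the genes. The pooled SD of the 17 had a median of 0.21 (log2), against 0.23 for the 181 bright features and 0.42 for all features. Part of this spread followed the sample number. Numbers 1 and 2, 3 and 4, and 5 and 6 resemble each other in these data, and what the numbers stand for is not labelled. The gap between the highest and the lowest of these 3 number pairs, averaged over genotypes, had a median of 0.30 (log2) in the 17 genes, against 0.34 in the 181 bright features and 0.54 in all features.

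**Figure D4:**
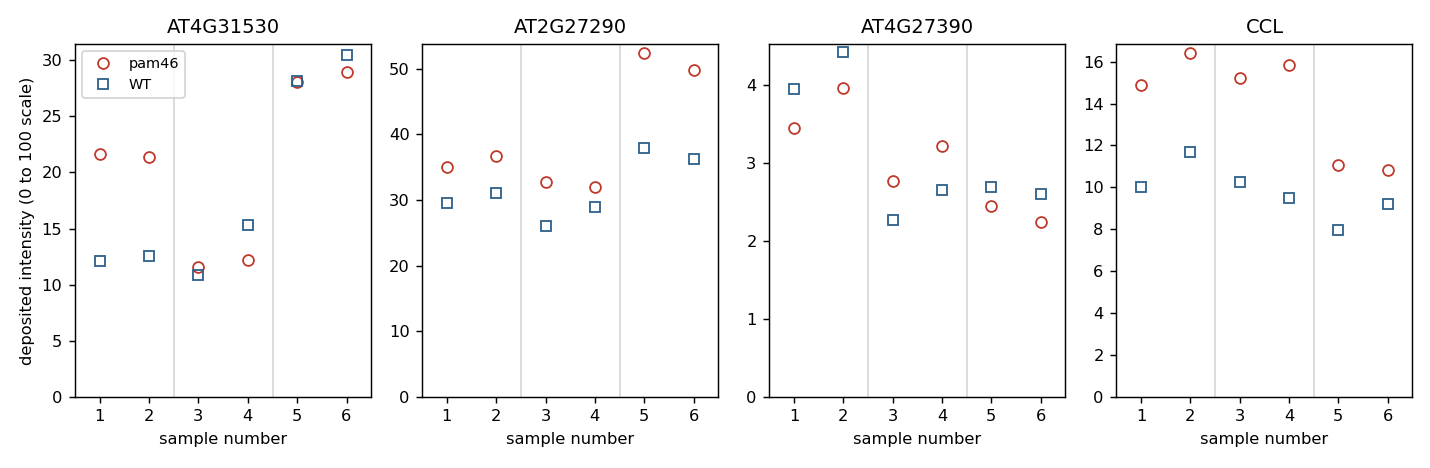
Deposited intensity (0 to 100 scale) by sample number in pam46 (red circles) and WT (blue squares) for the 4 genes of the 17 with the smallest p for number pairs. Grey lines separate numbers 1 and 2, 3 and 4, and 5 and 6. In AT4G31530 both genotypes are near 29 at numbers 5 and 6.

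AT4G31530 showed this most. At numbers 5 and 6 it averaged 28.5 in pam46 and 29.3 in WT, at 3 and 4 it averaged 11.9 in pam46 and 13.1 in WT, and at 1 and 2 it averaged 21.5 in pam46 and 12.3 in WT. The genotypes thus lay close together at 4 numbers and apart at numbers 1 and 2, while the number pairs were 1.08 apart on the log2 scale. AT2G27290 was also brightest at numbers 5 and 6, with 51.2 in pam46 and 37.1 in WT, against 32.4 in pam46 and 27.5 in WT at numbers 3 and 4. CCL went the other way, with 10.9 in pam46 and 8.56 in WT at numbers 5 and 6, against 15.7 in pam46 and 10.9 in WT at numbers 1 and 2. AT4G27390 was highest at numbers 1 and 2, with 3.71 in pam46 and 4.19 in WT, and at numbers 5 and 6 had 2.35 in pam46 and 2.65 in WT.

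A limma F test of the 3 number pairs beside genotype, on all 12 samples and adjusted over all features, called 7 of the 17 genes (41.2%), against 30.0% of all features. They were AT2G27290 (adjusted p = 0.00105), CCL (0.00717), AT4G27390 (0.00799), AT4G31530 (0.00847), AT1G21660 (0.0125), AT4G19900 (0.0455) and AT1G13990 (0.0459). The pairs of numbers had been noticed in these same data, and the test takes samples of a pair as independent, which can make its p-values too small. With each pair averaged, the same limma test called 0 of 17 genes and 0 of 3438 features, while 1 of 17 (AT2G27290, unadjusted p = 0.0400) and 17.9% of all features had an unadjusted p under 0.05. AT3G09850 did not pass, although WT numbers 1 and 2 averaged 30.5 and WT numbers 3 and 4 averaged 56.8. In pam46 the order was the opposite, with 47.2 at numbers 1 and 2 and 37.4 at numbers 3 and 4, and whether the genotypes differ in this respect was not tested.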

How the data were processed

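Total RNA of 6 pam46 and 6 WT samples was measured on an array. The deposited values are array intensities, linear and between 0 and a cap of 100. What the authors did to them before deposit (background correction, normalization) and the probe design are not stated by any label or header. The platform annotation, which can be old, gave 692 of 3439 features 1 gene, 870 several and 1877 none, and 690 of the 692 were matched by gene ID to the RefSeq table (TAIR10.1, used for names and neighbours only). The dimmer of 2 features of 1 gene was dropped. Columns were quantile-normalized, values under the 5th percentile of positive values set to that floor (0.0277), and log2 taken. limma 3.58.1 in R 4.3.3 (lmFit, eBayes, two-sided, Benjamini-Hochberg over 3438 features) gave differences, SE and calls, and was tested on simulated data. The simulated samples were independent, while consecutive numbers resemble each other in these data. The simulation therefore does not check the SEs and calls under such resemblance. The number of arrays limits the precision.

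The 17 genes and all lists were chosen with earlier results of these data known. All 17 are named, and the 2 genes nearest each limit. Deviations of same-numbered pam46 and WT samples from their group means correlated across all features at 0.24 to 0.57. Across the 17 genes they correlated at -0.03 (number 4) to 0.70 (number 5). Samples of unlike number were not compared, so these values cannot show pairing by single number. The replicate block rests on the labels' shared numbers. Alternatives changed the scaling, the floor, the filter, the limits, the pairing and the samples used. The F test of number pairs was added after seeing the data.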

Additional observations from a re-analysis of the deposited data

Results flagged for a closer look

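For each of the 17 genes, the 6 samples of each group were checked for 1 sample far from the others, by the gap to its nearest neighbour over the range of the group (Dixon's test at its 95% critical value). Of 34 groups tested 1 was marked, where chance marks about 1 in 20 groups of independent samples. Consecutive numbers resemble each other here, so that rate may not hold. A pair of samples that deviate together can also go unmarked, and nothing is read from the count. For CYN, WT sample 3 stood at 1.65 on the normalized log2 scale, above the other WT samples at 1.18 to 1.296. The log2 difference of CYN ran from -0.42 to -0.09 as samples or pairs of numbers were left out.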

How the results depend on the processing

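The count of changed features, 1413 (669 higher and 744 lower in pam46), was 588 with consecutive numbers averaged, 695 with these averages and the replicate block, and 919 with a random block for consecutive numbers. It was 1164 to 1389 with samples left out, 1335 with dim features left out and 1656 with the replicate block on all 12 samples. The split moved to 373 higher and 1301 lower without scaling, to 382 higher and 1274 lower when sums were made equal, and to 900 higher and 641 lower when medians were made equal. Of the 17 genes 4 were called (2 higher and 2 lower in pam46), and 3 with equal sums (3 higher and 0 lower), 14 with equal medians (14 higher and 0 lower), 2 with dim features left out, 0 with averaging, 0 with averaging and the replicate block, and 0 with the random block. At an unadjusted p under 0.05 limma had 1, 2 and 4 of the 17 in these last 3 settings. The share of all features at that threshold was not computed, so nothing is read from these counts. The count was 1 to 5 with samples left out, the 1 without numbers 3 and 4, which was AT1G21660 and none of the 4. With the replicate block on all 12 samples it was 5, adding AT1G21660 to the same 4 genes, and the block changed no other call of the 17. The F test of number pairs called 1031 features and 7 of the 17, and with averaging 0 and 0. Averaging leaves fewer samples, while the random block keeps all 12. The cause of these moves was not tested.

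The rule gave 17 genes, 16 to 19 with samples left out, 17 with equal medians (16 of them shared), 44 with an intensity limit of 1 and 9 with a limit of 4. Signs of called genes turned with equal medians in AT4G19900 (0.12) and AT4G00870 (0.31). In 7 of the 25 alternatives no difference of the 17 can change, since only errors, the floor or other features do. Of the 306 differences in the other 18, 282 moved by less than the pooled SD, and with equal medians all 17 moved by more.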
